A study of Homo sapiens with 4 samples.

Results

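The ligands and receptors that steer growing axons were examined as a group of 9 genes: SLIT2, SLIT3, ROBO1, ROBO2, NTN1, DCC, UNC5C, SEMA3A and NRP1. A listed region belonged to a gene when it lay within 20 kb of the gene's span in the human build hg19, and span plus flanks are called the gene's window. The windows held 127 of the 32543 CHD5 peaks of the series and 176 of its 257073 H3K27me3 regions. The regions come from chromatin immunoprecipitation and sequencing in SH-SY5Y, a line derived from human neuroblastoma whose cells grow neurite-like processes in retinoic acid. CHD5, a nucleosome remodeller of the chromodomain helicase family, was expressed in a tagged form called FBio-CHD5 and captured on streptavidin beads. H3K27me3, the histone mark of Polycomb repression, was precipitated by antibody from cells expressing the same tagged CHD5, so the mark was not profiled without the construct in the lists used. All cells of the series had been in 10 uM retinoic acid for 8 days, without an untreated group. The other 2 of the 4 libraries, a streptavidin pull-down from cells with the FBio-Ctrl construct and input DNA, had no region list used here. What drives expression of the tagged protein is not given in the sources used here. Each group is 1 library and read counts are absent from the lists, so neither depth nor replicate error is known. All intervals are 95% intervals that cover counting error only and treat peaks as independent, and no difference between groups carries a p-value.

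Axon guidance works through secreted cues read by receptors on the growth cone. SLIT proteins bind ROBO receptors and repel axons from places such as the midline. Netrin, the product of NTN1, attracts axons through DCC, while receptors of the UNC5 family turn the response to repulsion. SEMA3A makes growth cones collapse and is bound by NRP1, which signals together with plexins. H3K27me3 is laid down by Polycomb repressive complexes and often marks developmental genes that are silent in a given cell.

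The SLIT ligands differ in both lists. Their sequences upstream of the start are given as description, and no link between sequence and lists was tested. RefSeq, in build GRCh38.p14, gives the 250 bases before the start of SLIT2 (chr4:20251655-20251904, plus strand), SLIT3 (chr5:169301140-169301389, minus strand) and DCC (chr18:52339947-52340196, plus strand). DCC is shown because its 5′ end, like that of SLIT2, carried regions of both lists, while that of SLIT3 carried CHD5 alone. They are printed 5′ to 3′ with the CG dinucleotides in capitals, and these coordinates belong to another build than the peaks.
SLIT2: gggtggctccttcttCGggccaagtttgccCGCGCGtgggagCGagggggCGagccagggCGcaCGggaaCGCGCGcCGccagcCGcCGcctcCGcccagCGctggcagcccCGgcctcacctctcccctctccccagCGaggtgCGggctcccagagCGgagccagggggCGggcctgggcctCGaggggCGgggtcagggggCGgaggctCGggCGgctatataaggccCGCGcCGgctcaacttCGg
SLIT3: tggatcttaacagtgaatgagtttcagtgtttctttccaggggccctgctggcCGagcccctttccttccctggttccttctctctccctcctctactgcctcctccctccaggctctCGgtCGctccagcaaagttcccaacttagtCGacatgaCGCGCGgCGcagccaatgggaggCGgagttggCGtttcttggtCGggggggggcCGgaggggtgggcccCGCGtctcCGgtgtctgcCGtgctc
DCC: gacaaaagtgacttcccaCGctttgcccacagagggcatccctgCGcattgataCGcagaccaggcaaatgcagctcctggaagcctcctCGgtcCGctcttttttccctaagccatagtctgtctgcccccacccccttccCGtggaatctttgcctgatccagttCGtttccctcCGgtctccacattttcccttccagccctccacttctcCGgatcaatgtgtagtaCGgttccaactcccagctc

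The SLIT2 sequence holds 30 CG dinucleotides, more than 87.6% of the 35116 RefSeq starts listed, whose median is 11. SLIT3 has 16 and DCC 10, and UNC5C, not printed, has 17. Both ROBO genes have 2 listed starts, with 12 and 9 CG dinucleotides for ROBO1 and 7 and 27 for ROBO2. The letters GGGCGG, a GC box that contains a CG, occur 5 times in the SLIT2 sequence on either strand, once in 1 of the ROBO2 sequences and in none of the others. They occur in 42.6% of all listed promoters. The letters AGGTCA, the half-site bound by nuclear receptors such as the retinoic acid receptors, occur on either strand in none of these 8 sequences and in 12.1% of all promoters. A match describes the letters of this window and is not a binding site.

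SLIT2 and SLIT3 also share a passenger. In RefSeq each overlaps a gene for miR-218, MIR218-1 in SLIT2 and MIR218-2 in SLIT3, and both give the same 5p sequence with different 3p arms. The sequences are shown because the SLIT windows take in these miRNA genes as well, with the seed (bases 2 to 8) in capitals.
hsa-miR-218-5p: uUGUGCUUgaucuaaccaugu
hsa-miR-218-1-3p: aUGGUUCCgucaagcaccaugg
hsa-miR-218-2-3p: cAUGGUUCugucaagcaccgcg

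CHD5 peaks were spread very unevenly over the 9 genes. SLIT3 and UNC5C held 76 of the 127 peaks, or 59.8%, on 20.7% of the window length. The densities, in CHD5 peaks per 100 kb of window, ran in the order SLIT3 at 7.21, UNC5C at 6.31, NRP1 at 2.51, SLIT2 at 2.45, ROBO2 at 2.00, SEMA3A at 1.44, ROBO1 at 1.16, NTN1 at 0.379 and DCC at 0.323. The 9 windows together had 2.37 (1.98 to 2.82) and the median gene 2.00, where the whole list had 1.05. Of the 9 genes, 7 lay above the whole-list density and 7 above the density of their own chromosome. No neighbouring pair in this order was separated beyond counting error, since each interval of the ratio contained 1. Between genes far apart in the order the ratios were large, and UNC5C exceeded DCC, the other netrin receptor, 19.5-fold (6.80 to 76.7). Gene length did not order the densities, with a Spearman rho of -0.200 across the 9 genes, which share 1 library.

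**Figure D1:**
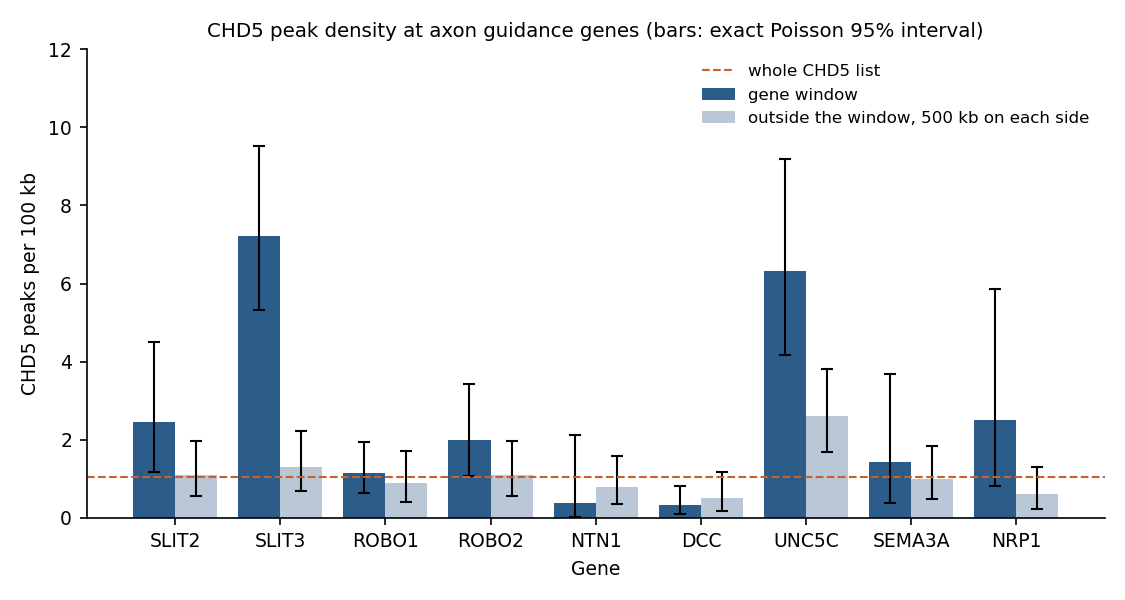
CHD5 peaks per 100 kb in the window of each gene (dark bars) and in 500 kb on each side beyond it (light bars), with exact Poisson 95% intervals and the density of the whole list as a dashed line. SLIT3 at 7.21 and UNC5C at 6.31 stand above their surroundings at 1.30 and 2.60, while NTN1 and DCC lie below the dashed line at 1.05.

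Among the ligands, SLIT3 was packed with CHD5 along nearly its whole length. Its span on chromosome 5 from 168088000 to 168728000 runs on the minus strand, and 49 peaks covered 18.2% of the window. The 500 kb on each side beyond the window held 13 peaks, or 1.30 per 100 kb, so that the window was 5.54 times as dense (2.96 to 11.1). Cutting the 7 chromosomes of these genes into consecutive windows of 680 kb gave 1 of 1502, or 0.0666%, with at least as many peaks. With the span cut into 10 equal segments from the 5′ end and peaks counted by midpoint, SLIT3 had 4, 5, 4, 2, 5, 5, 9, 6, 7 and 0 peaks. The last segment, at the 3′ end, was thus free of CHD5 midpoints, and 2 further peaks lay beyond the span on that side. Neighbouring peaks were separated by a median of 3.16 kb, and the longest run with gaps of up to 3 kb joined 7 peaks over 24.0 kb, from 168302400 to 168326372.

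SLIT3 peaks also scored high. The score is the value deposited with each peak call, with 50 as the smallest in the list, and is used here within the CHD5 list only. Scores in SLIT3 ran from 50.1 to 1278 with a median of 216, against a median of 117 for all CHD5 peaks and 126 for chromosome 5. Of its 49 peaks, 24 reached the upper quartile of the list, which 25.0% of all CHD5 peaks do by construction. The highest score, 1278, belonged to a peak of 6363 bp from 168195852 to 168202214, in the 3′ part of the gene. The widest peak, from 168573448 to 168580883, measured 7436 bp and scored 1141. The peak over the 5′ end, from 168725412 to 168729667, was 4256 bp wide and scored 581. Of the 49 peaks, 4 were at least 5 kb wide, a width that 2.71% of all CHD5 peaks reach.

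SLIT2, the paralogue of SLIT3 on chromosome 4 from 20254000 to 20622000, carried 10 CHD5 peaks with modest scores. They ran from 51.3 to 300 with a median of 87.2, below the list's median of 117, and 1 reached the upper quartile. That peak, from 20488803 to 20490903, was also the widest at 2101 bp. SLIT3 was 2.94 times as dense as SLIT2 (1.47 to 6.51). Among peaks at or above the list's median score, 31 in SLIT3 and 2 in SLIT2, the ratio was 9.30 (2.37 to 80.2). That interval is wide and overlaps the one before. With peaks joined across 3 kb, 25 in SLIT3 and 7 in SLIT2, the ratio was 2.14. No interval was computed for it, so whether it differs from 1 beyond counting error is not known. Against its own surroundings SLIT2 was 2.23 times as dense (0.848 to 5.78), an interval that contains 1, and 14.9% of windows of its length held at least 10 peaks.

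The ROBO receptors lie next to each other on chromosome 3, and ROBO2 was the median gene of the 9 in CHD5 density. ROBO1, with 1172 kb from 78646000 to 79818000, had 14 peaks at 1.16 per 100 kb, close to the 1.09 of chromosome 3 as a whole. As many peaks or more were found in 44.9% of windows of its length. ROBO2, from 77089000 to 77700000, had 13 peaks at 2.00 per 100 kb, and 20.5% of windows of that length held at least as many. The density ratio of ROBO1 to ROBO2 was 0.578 (0.252 to 1.34), an interval that contains 1. Among peaks at or above the list's median score, 6 in ROBO1 and 11 in ROBO2, the ratio was 0.293 (0.0890 to 0.864), below 1 beyond counting error. At or above the upper quartile, with 3 and 5 peaks, it was 0.322 (0.0501 to 1.66). The span used for ROBO2 measures 611 kb where the RefSeq gene measures 1743 kb, so the outer start and its surroundings are not covered.

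The ROBO genes differed in where the peaks sat along the spans used. These spans are not alike. That of ROBO1, at 1172 kb, matches its RefSeq length of 1171 kb, while the 611 kb of ROBO2 leave out the outer start. Of the peaks overlapping the ROBO2 span, 10 had their midpoint on the 5′ side of its middle and 2 on the 3′ side. In ROBO1 these numbers were 5 and 8. The 10 include the peak across the 5′ end of ROBO2, from 77087588 to 77089162, whose midpoint lies just outside the span. The highest score of all 127 peaks, 1337, was that of a ROBO2 peak 7566 bp wide, from 77338335 to 77345900, which starts 249 kb inside the span. The next ROBO2 peak by score reached 339, so this one stood well apart within its gene. In ROBO1 the highest score was 692, for a peak of 3716 bp from 79050891 to 79054606, 763 kb inside the gene. Another listed start of ROBO1 also lies inside the gene. Its distance to this peak was not measured, because its coordinates are of another build. The longest stretch of the ROBO1 window without CHD5 measured 292 kb and that of ROBO2 161 kb.

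**Figure D2:**
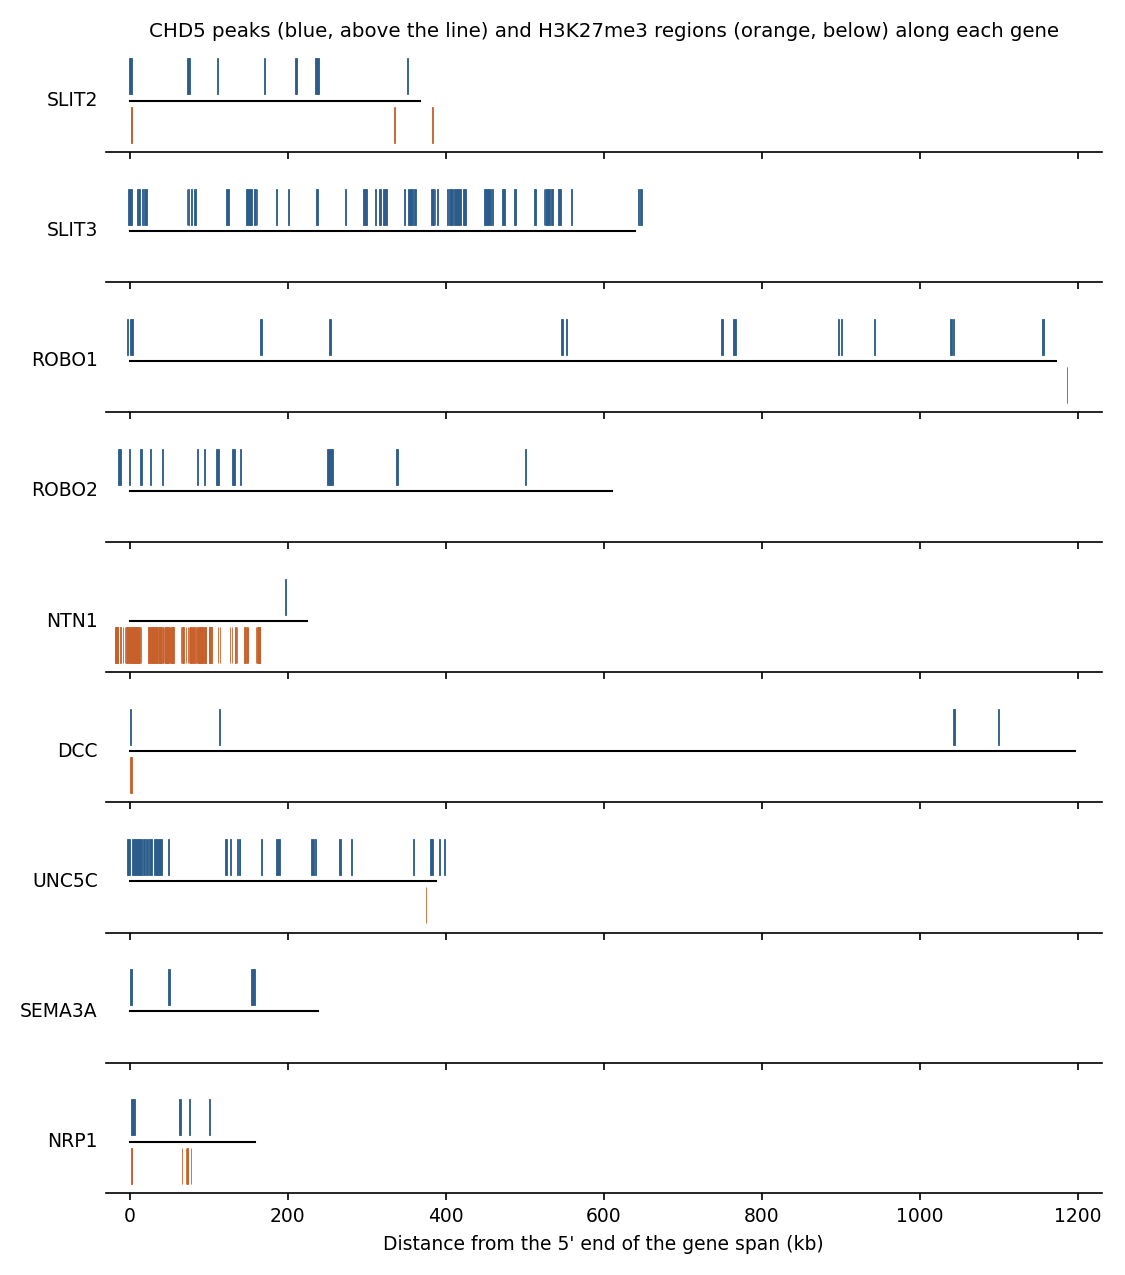
Position of every CHD5 peak (blue, above each line) and H3K27me3 region (orange, below) in the 9 windows, in kb from the 5′ end of the span (black line), with narrow regions drawn at a minimum width. The 49 peaks fill SLIT3, 10 of the 27 UNC5C peaks crowd at its 5′ end, 4 peaks dot the 1197 kb of DCC, and the 157 H3K27me3 regions of NTN1 lie apart from its single CHD5 peak.

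The netrin receptors stood at opposite ends of the order. UNC5C, on chromosome 4 from 96083000 to 96471000 on the minus strand, held 27 CHD5 peaks that covered 15.3% of its window. Its surroundings were rich too, with 26 peaks in 500 kb on each side, or 2.60 per 100 kb, and the window was 2.43 times as dense (1.36 to 4.33). Of windows of its length, 10 of 2388, or 0.419%, held at least as many peaks. The density of UNC5C was not separated from that of SLIT3, with a ratio of SLIT3 to UNC5C of 1.14 (0.700 to 1.90).

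The peaks of UNC5C gathered at its 5′ end. From 96429661 to 96474678, 10 peaks followed each other with gaps of up to 3 kb over 45.0 kb, the longest such run in the 9 windows. It reaches from 3.68 kb upstream of the 5′ end into the gene. At its inner end lay the widest peak of all 9 genes, 10595 bp with a score of 659, from 96429661 to 96440255. The first of 10 equal segments of the span held 8 of the 23 peaks with a midpoint in the span. The highest score in UNC5C, 730, was however that of a peak of 3580 bp further inside, 229 kb from the 5′ end, from 96238048 to 96241627. The median score was 144, and 8 of the 27 peaks reached the list's upper quartile.

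DCC is the longest of the genes, with a span of 1197 kb on chromosome 18 from 49866000 to 51063000. It contained 4 CHD5 peaks. At most as many were found in 19.4% of windows of its length. One peak scored 140 and spanned the 5′ end, from 49865807 to 49867544. Another lay 114 kb inside with a score of 63.7, and the remaining pair sat near the 3′ end with scores of 218 and 112. Between them 928 kb of the gene held no CHD5 peak. The surroundings were also sparse, with 5 peaks in 500 kb on each side, and the ratio of 0.647 (0.128 to 3.00) did not separate DCC from them.

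NTN1, the netrin ligand, was the gene where the lists parted. Its span lies on chromosome 17 from 8924000 to 9148000. The span with its flanks had 157 H3K27me3 regions, 89.2% of those of all 9 genes, and 1 CHD5 peak. Regions of H3K27me3 numbered 59.5 per 100 kb (50.5 to 69.5), against 11.2 on chromosome 17 and 8.31 in the whole list, and 4.13% of windows of this length held at least as many. Joined across gaps of up to 3 kb they formed 9 domains that covered 44.9% of the window. The 3 widest measured 33.2, 31.8 and 31.5 kb, and the first of them, from 8905043 to 8938192, contained the 5′ end. The strongest region scored 560, 94.1 kb inside the gene, from 9018090 to 9019066. None of the domains touched CHD5. The CHD5 peak of NTN1, from 9120371 to 9122028 with a score of 138, lay 196 kb inside the span and 31.5 kb past the last H3K27me3 region. At most 1 CHD5 peak is found in 41.8% of windows of this length, and in 37.9% when windows empty in both lists are left out, so a single peak is common at this length.

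SEMA3A and its receptor NRP1 had few CHD5 peaks each. SEMA3A, on chromosome 7 from 83587000 to 83825000, lies between the genes of 2 other class 3 semaphorins, SEMA3E and SEMA3D, and had 4 peaks with scores of 72.8, 74.3, 177 and 305. Its density of 1.44 per 100 kb was close to the 1.42 of chromosome 7, and 36.5% of windows of its length held at least as many. The SEMA3A peaks had a median width of 2425 bp, near the 2536 bp of all peaks on chromosome 7. The span used covers 238 kb of a RefSeq gene of 537 kb. NRP1, on chromosome 10 from 33466000 to 33625000, had 5 peaks with scores from 86.6 to 322. Its window was 4.19 times as dense as its surroundings (1.01 to 16.5), which held 6 peaks, and 17.5% of windows of its length held at least 5.

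**Figure D3:**
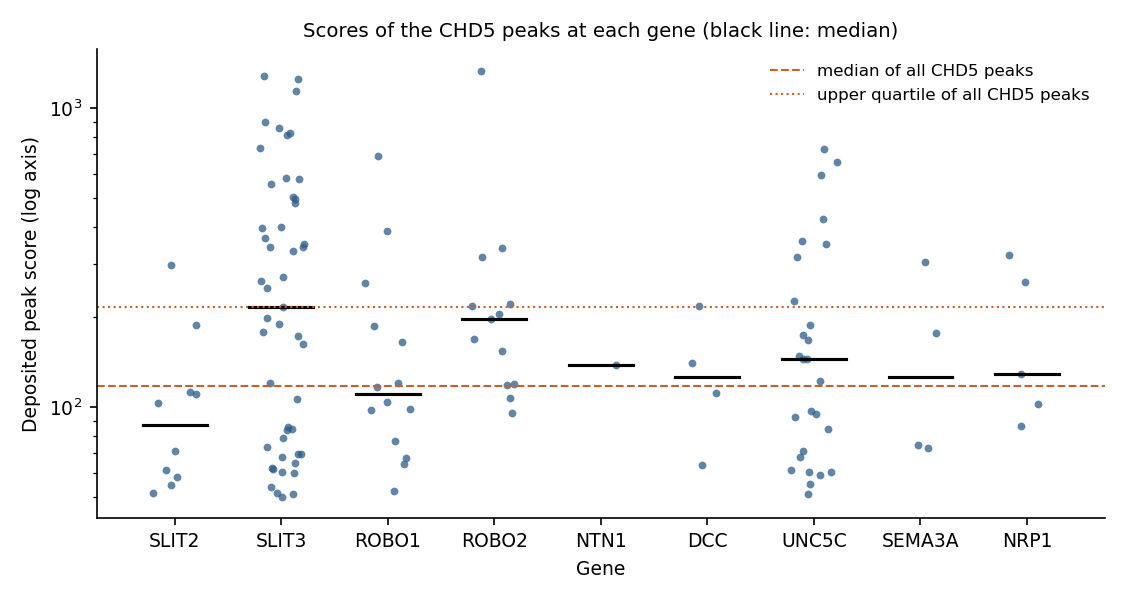
Deposited score of each CHD5 peak by gene on a log axis, with the median of each gene as a black line and the median (117) and upper quartile (217) of all CHD5 peaks as orange lines. SLIT3 holds 24 peaks at or above the upper quartile, SLIT2 holds 1, and the highest point is the ROBO2 peak at 1337.

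Over all 127 peaks the median score was 144.5 and the median width 1810 bp, against 117 and 1647 bp in the whole list. The upper quartile of scores was reached by 45, or 35.4%, against 25.0% of all peaks. SLIT3 supplied 24 of these 45. Without SLIT3 the median score was 121, and 21 of 78 peaks reached the quartile.

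A CHD5 peak at the 5′ end of the span used was the feature most of the genes had in common. Within 5 kb of that end, 8 of 9 genes had a peak, and NTN1 was the exception. The spans used are shorter than the RefSeq genes for ROBO2 (611 of 1743 kb), SEMA3A (238 of 537 kb) and NTN1 (224 of 241 kb). For these 3 genes the 5′ end of the span may therefore not be the RefSeq start. Of all 10-kb tiles of the genome 10.6% hold part of a CHD5 peak. At the 3′ end 2 of the 9 genes, SLIT3 and UNC5C, had a peak within 5 kb. A comparison with the 5′ ends of other genes was not made for want of an annotation of the build. Spans were known to 1 kb, and the peaks of SLIT2, SLIT3, ROBO2 and DCC ran across the 5′ end at that precision. Those of UNC5C, SEMA3A and ROBO1 came within 0.065, 0.090 and 0.170 kb of it. These distances are below the precision of the spans, so such peaks cannot be told from peaks across the end. That of NRP1 came within 1.41 kb. Scores of the nearest peak were 71.4 in SLIT2, 581 in SLIT3, 389 in ROBO1, 204 in ROBO2, 140 in DCC, 167 in UNC5C, 177 in SEMA3A and 322 in NRP1. The nearest peak was the highest of its gene in NRP1 alone among these 8. Of 10 equal segments of the spans, the first at the 5′ end held the most peaks, 23 of 118, or 19.5% (exact binomial interval 12.8% to 27.8%). Without UNC5C it held 15 of 95, or 15.8% (9.12% to 24.7%). The 50% of the span next to the 5′ end held 64 of 118 peaks, or 54.2% (44.8% to 63.4%). This share was 62.0% without SLIT3 and 50.5% without UNC5C.

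**Figure D4:**
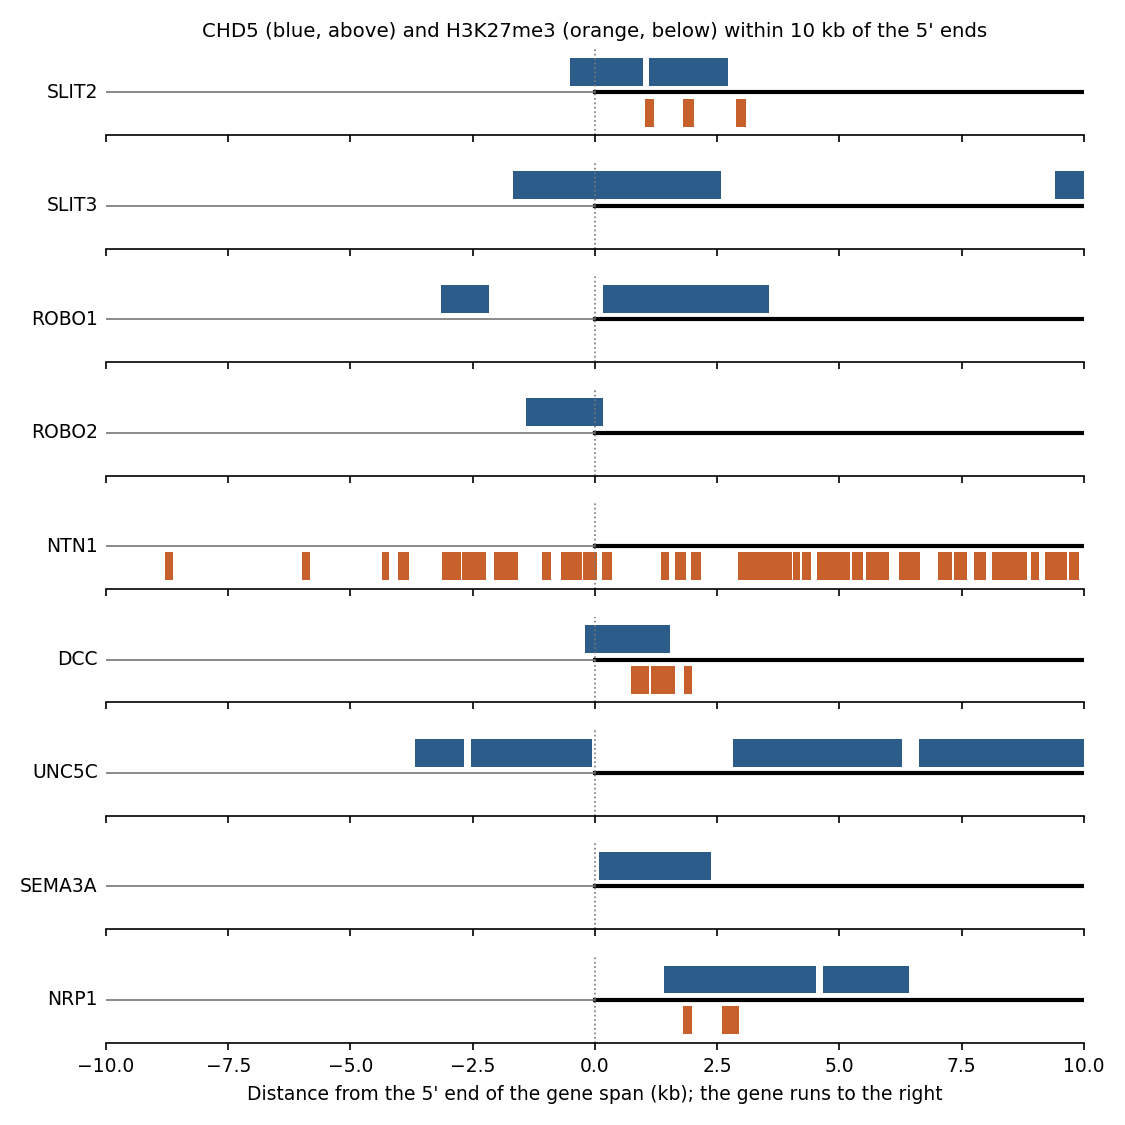
CHD5 peaks (blue, above) and H3K27me3 regions (orange, below) within 10 kb of the 5′ end of each span, in kb, with the gene drawn to the right as a thick line. CHD5 is present within 5 kb in 8 of 9 genes, H3K27me3 in 4 (SLIT2, NTN1, DCC and NRP1), and SLIT2, DCC and NRP1 have both.

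H3K27me3 was present within 5 kb of the 5′ end in 4 of 9 genes, namely NTN1, SLIT2, DCC and NRP1, where 16.0% of all 10-kb tiles hold part of a region. In SLIT2, DCC and NRP1 it met CHD5 there. Tiles of 10 kb with regions of both lists make up 0.551% of the genome. That share covers tiles of every kind, and the 5′ ends of other genes were not counted, so it is no background for 5′ ends. These 3 genes supplied all 3 CHD5 peaks of the windows that overlap H3K27me3, 2.36% of the 127 (exact binomial interval 0.490% to 6.75%). Over all CHD5 peaks the share is 2.19%, so the share among the members was near that background. Within 10 kb of H3K27me3 lay 7.09% of the members and 7.77% of all CHD5 peaks.

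Each of these overlaps was small and partial. In SLIT2 the CHD5 peak from 20255101 to 20256719, with a score of 110, shared 330 bp with H3K27me3 regions, or 20.4% of its width. Those regions belong to a domain of 2.07 kb with 3 regions, from 20255025 to 20257096, whose highest score was 84.3. No H3K27me3 region in the SLIT2 window reached the median score of its list. With regions limited to that score, 1.57% of the members overlapped, and the like share of all CHD5 peaks was not counted. In DCC the peak over the 5′ end shared 764 bp, or 44.0% of its width, with a domain of 1.25 kb from 49866734 to 49867986 whose highest score was 249. In NRP1 the peak from 33620475 to 33623595 shared 516 bp, or 16.5%, with a domain of 1.13 kb from 33622063 to 33623193. The highest score of that domain was 110. In all 3 genes the domain began inside the span, 1.02, 0.733 and 1.81 kb from the 5′ end, with the spans known to 1 kb. No CHD5 peak of the 9 windows was covered over at least 50% of its width. The other peak at the 5′ end of SLIT2, from 20253489 to 20254984, lay 40 bp from the nearest H3K27me3 region.

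Outside NTN1 the mark was thin, with 19 regions in 8 windows, or 0.373 per 100 kb against 8.31 in the whole list. NRP1 was the exception, with 8 of the 19 at 4.02 per 100 kb, near the 3.92 of chromosome 10. SLIT3, ROBO2 and SEMA3A had none, which 20.4%, 22.6% and 44.1% of windows of their lengths share. SLIT2 had 2 regions besides those at its 5′ end, of 131 bp from 20588754 to 20588884 and of 113 bp from 20636868 to 20636980. The 3 regions at the 5′ end of DCC were all that its 1237 kb window held. NRP1 had a further 6 regions inside the gene, the widest domain being 2.64 kb from 33551640 to 33554275, and the CHD5 peak nearest to these scored 86.6. ROBO1 had 2 regions, both beyond the 3′ end, in a domain of 0.553 kb from 78631453 to 78632005. UNC5C had 1, of 129 bp from 96096431 to 96096559, near its 3′ end. The median CHD5 peak of the 9 genes lay 711 kb from the nearest H3K27me3 region, against 166 kb in the whole list. Without the peaks of SLIT3 it was 254 kb. By gene this median ran from 1.72 kb in NRP1 to 1078 kb in SLIT3. Across the 9 genes the densities of the lists had a Spearman rho of -0.254, which is no clear relation.

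At the 20-kb limit few regions were in doubt. Among CHD5 peaks the outermost member lay 11.4 kb from its span, at ROBO2, with a score of 197. The nearest peak left out lay 33.3 kb away, at SEMA3A, with a score of 281. Among H3K27me3 regions the outermost member lay 18.6 kb from the NTN1 span with a score of 148, and the nearest left out lay 23.7 kb from UNC5C with a score of 72.1.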

How the data were processed

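Region lists for the CHD5 pull-down and H3K27me3, 1 library each, were used. Both are MACS peak calls deposited by the authors, per the file headers, on build hg19, per the submitters' processing notes. No source used here gives the aligner or the version, threshold and background library of MACS. A score per peak was deposited by the authors on a scale not stated, with a minimum of 50 in both lists. A narrow-peak caller can split a broad mark, so H3K27me3 regions within 3 kb were also joined.

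Members are regions that overlap a gene span plus 20 kb on each side by at least 1 bp. The members and lists were chosen with earlier results of these data known. Spans are given to 1 kb. Strands come from RefSeq, and for NTN1, SEMA3A and NRP1 from general knowledge. Density is regions divided by window length. Whole-list densities run to the highest region end of each chromosome, gaps included. Intervals are exact Poisson, exact binomial, or exact conditional for ratios. Positions named are, per gene, the highest-scoring, widest and 5′-nearest CHD5 peak, overlaps with H3K27me3 and the widest domain. Runs of peaks, the strongest NTN1 region and the DCC sequence were chosen after their values were seen. Of 9 genes, 6 matched the RefSeq promoter table; ROBO promoters are given as counts. Exon, intron and UTR positions and other axon guidance genes were not analysed here, as the annotation at hand is of another build. Alternatives covered flanks, score limits, joining, overlap and distance limits. Counts were checked with bedtools 2.31.1 and routines tested on simulated data, in Python 3.11.15 with numpy 2.4.6, scipy 1.17.1 and matplotlib 3.10.9.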

Additional observations from a re-analysis of the deposited data

How the results depend on the processing

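Runs without SLIT3, UNC5C or NTN1 were chosen after the data were examined. SLIT3 and UNC5C were the densest pair, and DCC and NTN1 the sparsest, in all 7 alternatives of the density of genes. The CHD5 density of the 9 windows, 2.37 per 100 kb, became 1.36 with scores at or above the list's median, 0.840 at or above its upper quartile, and 1.53 with peaks joined across 3 kb, all by construction, since fewer peaks are counted. It became 1.67 without SLIT3 and 1.20 without SLIT3 and UNC5C, near the list's 1.05. The ratio of SLIT3 to SLIT2 became 9.30 (2.37 to 80.2) and 14.4 (2.35 to 592) with the score limits. These values rest on 2 and 1 peaks in SLIT2, and the cause was not tested. H3K27me3 regions, 3.29 per 100 kb, became 1.51 above the median score, 0.355 joined, and 0.373 without NTN1. The overlap of 2.36% became 0% with at least 50% of the peak required to be covered and 7.09% within 10 kb, near the 7.77% of all CHD5 peaks. The median distance to H3K27me3 became 1057 kb above the median score, 2902 kb to domains of at least 5 kb and 254 kb without SLIT3. The other 29 of 44 alternatives stayed within the interval of the value reported, or within 1.5 times it for counts of genes. Among values by gene, 40 of 54 for CHD5 and 29 of 36 for H3K27me3 did so. No paired analysis was possible because each group is 1 library.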

Other observations

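The H3K27me3 domain at the 5′ end of SLIT2 had its next regions 332 and 380 kb away on the 3′ side, single regions of 131 and 113 bp, and 2524 kb away on the other side. Around DCC the next H3K27me3 regions lay 768 kb from the span on the 5′ side and 866 kb on the 3′ side. SLIT3, with 49 CHD5 peaks and no H3K27me3 region in its window, had its nearest H3K27me3 regions 696 and 1359 kb from the span, on the 5′ and 3′ side. Around NTN1 the order was the other way round. Its surroundings of 500 kb on each side beyond the window held 379 further H3K27me3 regions and 8 CHD5 peaks, and the nearest CHD5 peak upstream of NTN1 lay 321 kb from the span with a score of 373. Downstream the nearest lay 164 kb away with a score of 418. These are positions in 1 library of each kind, and no explanation was tested.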
